A study of Mus musculus with 8 samples.

Results

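Among the CD45+ leukocytes of arthritic paw joints there was a small population of early neutrophil precursors that carried transcripts of Fcnb together with those of the specific granule proteins. They were selected on their transcripts. A cell counted when S100a8 and S100a9 made up at least 5% of its unique molecular identifiers (UMIs, 1 per captured RNA molecule), when Camp, Ngp and Ltf made up at least 3%, and when it held at least 2 UMIs of Fcnb. There were 96 such cells, hereafter Fcnb+ precursors, among 10256 kept cells and among 6578 cells that passed the S100a8 and S100a9 limit (neutrophils). Of these, 59 came from Mono+MCTR3 mice and 37 from Mono mice. A barcode was kept if it had between 250 and 3000 genes and no fewer than 500 UMIs, of which mitochondrial genes gave 5% or less.

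All the mice were C57BL/6 and all had arthritis, which was induced with K/BxN serum (an antibody-bearing serum that inflames the joints of a recipient) on days 0, 2 and 9. Monocytes of arthritic donors were then given by vein on day 12. In the Mono+MCTR3 group these monocytes had been held for 90 min with 1 nM MCTR3, a lipid mediator made from docosahexaenoic acid and conjugated to cysteine, and in the Mono group with vehicle. Joints were taken on day 22, and each group held 4 mice, told apart here by the barcode suffix and numbered 1 to 4. The transferred cells were monocytes, and nothing in the tables separates descendants of donor cells from those of the host.

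Neutrophils are made in the bone marrow. Their precursors divide while they fill primary granules (myeloperoxidase and the serine proteases of the elastase family) and then specific granules (lactoferrin, cathelicidin), and they stop dividing before gelatinase granules form and the cell is released to the blood. Fcnb encodes ficolin B, a lectin that recognises microbial sugars and is made by myeloid precursors of the mouse. Camp encodes cathelicidin, Ngp a cystatin-like granule protein and Ltf lactoferrin, while S100a8 and S100a9 encode calprotectin, the main cytosolic protein of neutrophils.

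On GRCm38 (GENCODE vM21), Fcnb is on the minus strand of chromosome 2 (28076378 to 28084885). Camp (109847379 to 109849617, minus strand), Ngp (110419747 to 110423012, plus strand) and Ltf (111019271 to 111042767, plus strand) are all on chromosome 9. The promoters of these genes (250 bases before to 50 after the start, RefSeq, GRCm38.p6) are shown because they belong to the transcripts by which the cells were found. Capitals mark each match on either strand to the C/EBP core TTNNGNAA, the binding motif of the factor family that includes C/EBPε.
Fcnb, chr2:28084829-28085128, minus strand: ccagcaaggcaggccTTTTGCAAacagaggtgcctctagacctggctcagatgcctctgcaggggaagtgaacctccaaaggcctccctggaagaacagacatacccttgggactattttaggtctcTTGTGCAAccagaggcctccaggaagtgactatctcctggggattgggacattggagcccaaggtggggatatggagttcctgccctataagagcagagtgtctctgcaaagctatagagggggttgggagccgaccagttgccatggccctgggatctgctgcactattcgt
Camp, chr9:109849407-109849706, minus strand: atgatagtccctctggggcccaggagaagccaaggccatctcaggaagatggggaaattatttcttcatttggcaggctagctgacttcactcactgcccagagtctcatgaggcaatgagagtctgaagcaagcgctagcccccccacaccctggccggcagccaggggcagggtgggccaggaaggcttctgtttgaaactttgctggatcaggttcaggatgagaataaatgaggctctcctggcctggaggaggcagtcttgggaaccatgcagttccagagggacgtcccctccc
Ngp, chr9:110419558-110419857, plus strand: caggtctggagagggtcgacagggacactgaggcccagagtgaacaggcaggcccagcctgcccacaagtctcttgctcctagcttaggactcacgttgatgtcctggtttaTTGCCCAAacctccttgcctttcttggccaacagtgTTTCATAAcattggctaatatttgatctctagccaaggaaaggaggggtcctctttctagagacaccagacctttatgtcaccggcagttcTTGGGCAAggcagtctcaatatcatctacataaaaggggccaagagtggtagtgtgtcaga
Ltf, chr9:111019042-111019341, plus strand: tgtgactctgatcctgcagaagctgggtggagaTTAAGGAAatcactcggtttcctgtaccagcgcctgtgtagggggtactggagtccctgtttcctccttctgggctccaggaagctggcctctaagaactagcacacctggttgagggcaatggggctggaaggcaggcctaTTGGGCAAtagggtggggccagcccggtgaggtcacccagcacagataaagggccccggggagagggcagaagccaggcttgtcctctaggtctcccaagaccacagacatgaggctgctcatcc
The motif occurred 2 times in the Fcnb window, 0 times in that of Camp, 3 times in that of Ngp and 2 times in that of Ltf. It was also present in 40.7% of the 27025 promoters of this length, so a match by itself is common. The PU.1 word GAGGAAGT was found in none of the 4 windows and in 3.28% of all.

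By the values that chose them, Fcnb+ precursors held a median of 5 Fcnb UMIs (quartiles 3 and 9, highest 46), 16.8% of UMIs from Camp, Ngp and Ltf and 32.4% from S100a8 and S100a9. They were set beside a pair of reference classes. Fcnb-low immature neutrophils (1036 cells) passed the same S100 and granule limits with fewer than 2 Fcnb UMIs, and held medians of 10.2% and 35.5%. Granule-low neutrophils (5446 cells) fell under the granule limit, with medians of 0.0681% and 22.4%. Summed over cells, Camp took 7.34% of the UMIs of Fcnb+ precursors, 4.42% of those of Fcnb-low immature neutrophils and 0.0736% of those of granule-low neutrophils. For Ltf the same shares were 1.30%, 1.13% and 0.00874%. These differences follow from the limits and were not tested.

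The Fcnb limit cut through a gradient. Of the Fcnb+ precursors, 20 cells held exactly 2 Fcnb UMIs, while 45 Fcnb-low cells held 1 and 991 held 0. The granule limit was far from the precursors, whose lowest granule share was 6.59%. Outside the class, 2 granule-low neutrophils and 4 cells outside the neutrophil gate also had at least 2 Fcnb UMIs, and 4 barcodes that met every other limit were removed for having over 3000 genes (29 to 71 Fcnb UMIs and 17398 to 23645 UMIs in all). Fcnb was otherwise close to absent. At least 1 Fcnb UMI was seen in 4.34% of Fcnb-low immature neutrophils, 0.184% of granule-low neutrophils and 0.435% of the 3678 cells outside the gate, classes of lower depth. Free RNA was not estimated.

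Fcnb+ precursors were the deepest cells, with a median of 8584 UMIs and 1490.5 genes, against 4074 UMIs and 842 genes in Fcnb-low immature neutrophils, 1615.5 UMIs in granule-low neutrophils and 2478 UMIs outside the gate. Since the Fcnb limit is a number of UMIs, depth helped to decide who passed it. The median depth of Fcnb+ precursors ran from 5537 to 11419 UMIs over the Mono+MCTR3 mice and from 6984 to 9861.5 over the Mono mice. No Fcnb+ precursor was called a doublet, and 1 carried a barcode that also occurred in another mouse. Pairs of mice shared 0 to 8 barcodes. Over the whole table the kept UMIs per mouse were 1731045 to 6009009 in Mono+MCTR3 and 2602412 to 3832301 in Mono.

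To ask whether the transfer of MCTR3-treated monocytes altered how many such precursors were in the joint, shares were compared per mouse. Mono+MCTR3 mice 1 to 4 had 11, 36, 11 and 1 Fcnb+ precursors, and Mono mice 1 to 4 had 10, 6, 11 and 10. As a share of kept cells this was 0.823%, 1.88%, 1.09% and 0.132% in Mono+MCTR3, and 0.867%, 0.380%, 0.934% and 0.751% in Mono. The Mono+MCTR3 mice therefore held both the highest and the lowest value, and the Mono values lay between them. The means were 0.982% ± 0.723 in Mono+MCTR3 and 0.733% ± 0.247 in Mono (SD over 4 mice a group), a difference of 0.249 percentage points (two-sided exact permutation test, p = 0.60). With 4 against 4 mice the smallest p possible is 0.0286. Mouse 2 of Mono+MCTR3 decided the sign, since without it the difference was -0.0507 points.

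**Figure D1:**
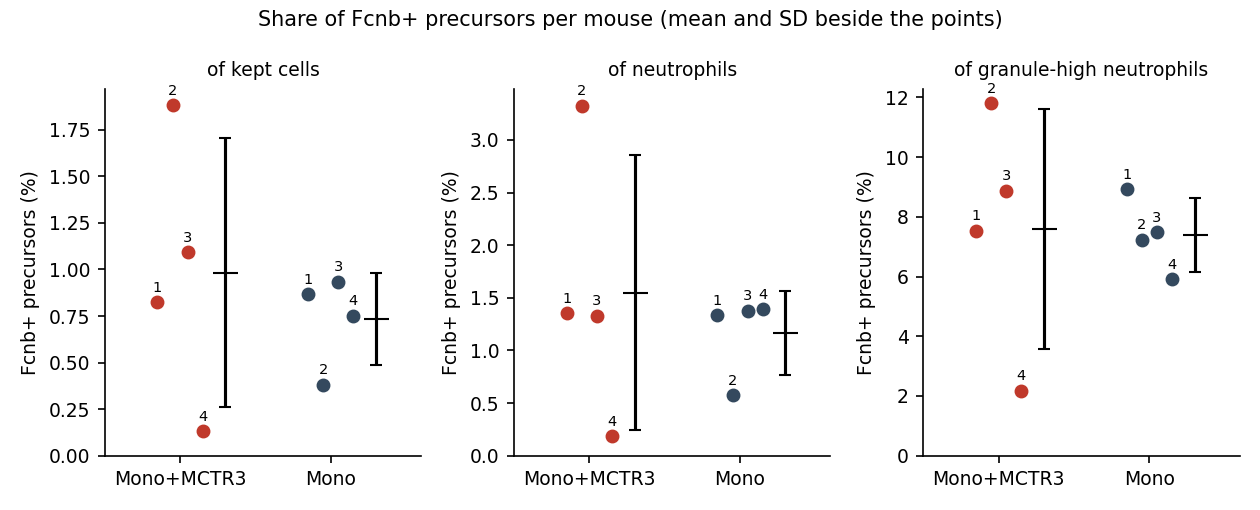
Fcnb+ precursors as a percentage of kept cells (left), of neutrophils (middle) and of granule-high neutrophils (right) in each mouse, numbered 1 to 4, with Mono+MCTR3 left of Mono. The bar beside the points is the mean and SD. In each panel the 4 Mono values lie between the lowest and highest Mono+MCTR3 values.

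The same held with other denominators. Fcnb+ precursors were 1.55% ± 1.31 of neutrophils in Mono+MCTR3 and 1.17% ± 0.399 in Mono (exact permutation p = 0.83, n = 4 each). Among granule-high neutrophils, that is, Fcnb+ precursors and Fcnb-low immature neutrophils together, they were 7.60% ± 4.03 in Mono+MCTR3 and 7.39% ± 1.23 in Mono (exact permutation p = 0.914). The share of granule-high cells among neutrophils varied with the same mice. It was 17.98%, 28.2%, 14.98% and 8.49% in Mono+MCTR3 mice 1 to 4 and 14.95%, 7.92%, 18.4% and 23.5% in Mono mice 1 to 4. Cells with at least 2 UMIs of Vpreb3, a gene of immature B cells of the marrow, were 8.98%, 11.97%, 3.08% and 3.96% of kept cells in Mono+MCTR3 and 9.71%, 3.23%, 4.07% and 9.76% in Mono. Mouse 2 of Mono+MCTR3 was highest and mouse 2 of Mono lowest within its group in both of these shares and in that of precursors among kept cells. Whether marrow-type cells among the sorted leukocytes had a part in the shares was not tested.

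The genes that the selection did not use were compared next, between Fcnb+ precursors and Fcnb-low immature neutrophils of the same mouse. Only the 6 mice with at least 10 Fcnb+ precursors entered (Mono+MCTR3 1, 2 and 3, Mono 1, 3 and 4), the mouse was a block, and levels are UMIs per 1000000 UMIs outside the 6 genes of the selection (CPM). The quasi-likelihood test of edgeR covered 2316 genes. Fcnb+ precursors had higher levels of 590 (25.5%) and lower levels of 570 (24.6%) at a Benjamini-Hochberg adjusted p under 0.05. The fold changes are relative to the typical gene. With library totals in place of the scaling factors of edgeR (TMM), all moved up by about 0.27 on the log2 scale (median 0.27 against 0.01), and 848 genes were higher and 374 lower.

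The transcripts of dividing cells were far more abundant in Fcnb+ precursors. Ube2c, which encodes a ubiquitin-conjugating enzyme of the anaphase-promoting complex, had 819, 432 and 617 CPM in Fcnb+ precursors of Mono+MCTR3 mice 1 to 3 and 127, 280 and 637 CPM in those of Mono mice 1, 3 and 4, against at most 3.95 CPM in Fcnb-low immature neutrophils of any of them. Its log2 fold change was 7.42 ± 0.33 (SE, adjusted p = 5.2e-12). The classes did not overlap in any mouse. Rrm2, a subunit of the ribonucleotide reductase that makes DNA precursors, averaged 524 ± 407 CPM against 1.78 ± 4.35 CPM (SD, n = 6 mice; log2 fold change 6.68). Top2a, which untangles DNA before division, averaged 261 ± 150 CPM against 1.01 ± 2.49 CPM.

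Several genes were so rare in Fcnb-low immature neutrophils that their fold is known only loosely. Asf1b, a histone chaperone, gave 96 UMIs in Fcnb+ precursors and 1 in Fcnb-low immature neutrophils, a pooled ratio of 474 with an exact 95% counting interval of 83.1 to 18925. Cdk1, the kinase that starts mitosis, gave 102 UMIs against 2. The others among the 10 largest rises were Cks1b, Cdca3, Knstrn, Tyms and Mki67, of which Cks1b is a partner of cyclin-dependent kinases and Knstrn a protein of the mitotic spindle. Of these 10 genes, 7 are on the S phase or G2 and M phase lists.

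Of the 28 genes on the S phase list, 7 had enough UMIs to be tested and all 7 were higher in Fcnb+ precursors (median log2 fold change 4.90, against 0.01 over all genes). Of 34 genes of G2 and M phase, 14 were tested and all 14 were higher (median 5.46). A gene seen in Fcnb+ precursors alone could pass the filter, so these are not counts over the whole lists. With no filter, 24 of 28 and 33 of 34 were higher and none was lower. Over all 11454 genes of that fit, 621 were higher and 1436 lower. Among 14 chromatin and cytoskeleton genes of dividing cells, 12 were tested, 10 were higher and 1 was lower. Stmn1, a regulator of microtubules, averaged 751 ± 234 CPM against 15.8 ± 9.06 CPM, and Hmgb2, a DNA-bending protein, 5829 ± 928 CPM against 2003 ± 80.8 CPM. The exception was Lmnb1, a protein of the nuclear lamina, with 329 ± 82.9 CPM against 886 ± 139 CPM (log2 fold change -1.62).

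**Figure D2:**
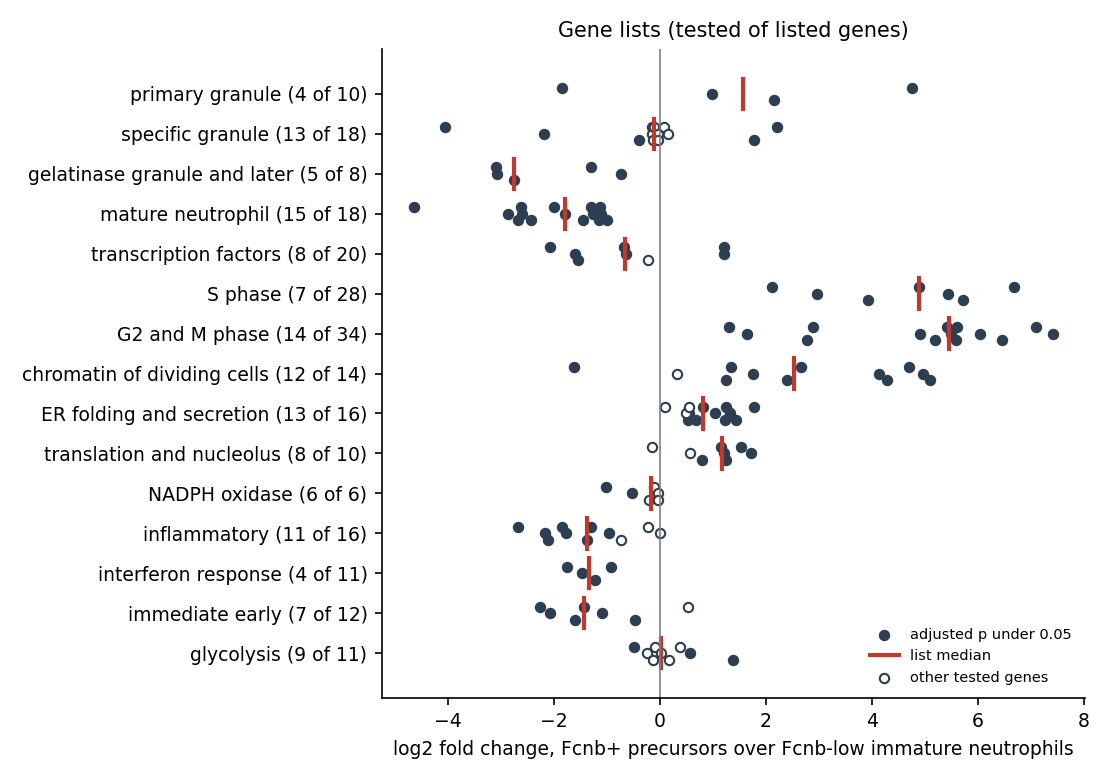
Log2 fold change of Fcnb+ precursors over Fcnb-low immature neutrophils (horizontal axis) for each tested gene of 15 lists (rows, tested of listed genes). Filled points passed an adjusted p of 0.05 and red bars are list medians. The S phase and G2 and M phase lists lie furthest to the right, with medians of 4.90 and 5.46, and the gelatinase granule list furthest to the left, with a median of -2.74.

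Granule genes went both ways. Of 10 primary granule genes, 4 were tested. Ms4a3, a membrane protein of granulocyte precursors, was higher (288 ± 229 CPM against 8.78 ± 6.42 CPM, log2 fold change 4.75 ± 0.32), as were Prss57, a serine protease (2.15), and Serpinb1a, an inhibitor of elastase (0.98). Srgn, the proteoglycan on which granule proteins are stored, was lower, with 728 ± 306 CPM against 2172 ± 314 CPM. Mpo, Elane, Prtn3 and Ctsg did not reach the filter, and most of their UMIs came from few cells. Ctsc and Cst7 did not reach it either. With no filter, 8 of the 10 genes were higher and 1 was lower, against 621 and 1436 of all 11454 genes.

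Of the 18 specific granule genes, 3 belong to the selection, and of the other 15, 13 were tested. Chil3 (Ym1, a chitinase-like lectin) had 22422, 18436 and 18626 CPM in Fcnb+ precursors of Mono+MCTR3 mice 1 to 3, and those of Mono mice 1, 3 and 4 had 15908, 17504 and 16889 CPM. In Fcnb-low immature neutrophils of these mice the range was 3374 to 6440 CPM, so that no mouse overlapped (log2 fold change 1.77 ± 0.11, adjusted p = 3.0e-10). Orm1, an acute-phase glycoprotein, averaged 645 ± 182 CPM against 119 ± 42.9 CPM (2.205 ± 0.19). These were the 2 members that rose. Mmp8 (neutrophil collagenase), Ceacam10 (an adhesion molecule) and Pglyrp1 (a peptidoglycan-binding protein) were lower, Mmp8 with 315 ± 269 CPM against 4347 ± 235 CPM. The other 8 did not pass, among them Lcn2, the iron-scavenging lipocalin, at 27747 ± 5507 CPM against 21460 ± 2955 CPM (log2 fold change 0.16, adjusted p = 0.16). The list median was -0.11 and turned to 0.16 with library totals, under which Lcn2 passed (0.43, adjusted p = 0.00088) and Pglyrp1 did not (-0.11, adjusted p = 0.27). With no filter, at a median of -0.35 over all genes, 2 of 15 were higher and 11 lower, Lcn2 among them (-0.37). Over all 11454 genes of that fit, 621 were higher and 1436 lower.

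Genes of later stages were lower. All 5 tested genes of 8 on the gelatinase granule list fell, with Mmp9 (gelatinase B) at 475 ± 212 CPM against 2601 ± 113 CPM and Fpr1, a receptor for formylated bacterial peptides, at 62.7 ± 70.1 CPM against 522 ± 98.7 CPM. All 15 tested genes of 18 on the mature neutrophil list fell too (median -1.79). Over all 2316 tested genes, 570 (24.6%) were lower. A gene seen in Fcnb-low cells alone could pass the filter, so these are not counts over the whole lists. With no filter, 7 of 8 and 17 of 18 were lower and none was higher, where 621 of all 11454 genes were higher and 1436 lower. Retnlg, a resistin-like secreted protein, had 1812, 4263 and 3447 CPM in Fcnb+ precursors of Mono+MCTR3 mice 1 to 3 and 1611, 1640 and 5024 CPM in those of Mono mice 1, 3 and 4, against 52960 CPM or more in every sum of Fcnb-low immature neutrophils used (log2 fold change -4.63 ± 0.22). Cxcr2, the receptor that draws neutrophils into blood and tissue, had 28.4 ± 20.6 CPM against 203 ± 39.7 CPM, and Cxcr4, which holds them in the marrow, 82.2 ± 22.8 CPM against 161 ± 40.4 CPM. All 4 tested genes of the 6 retention and release receptors were lower, as were 4 of 6 with no filter.

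The 10 largest falls were Stfa3, Retnlg, Ctnnbip1, Ankrd33b, Tpm4, Mmp8, Cyp4f18, Bst1, Cd300ld and Nt5e. Stfa3 encodes a stefin, an inhibitor of cysteine proteases, and its near-identical relatives make its counts uncertain. It gave 1 UMI in Fcnb+ precursors and 279 in Fcnb-low immature neutrophils. Cyp4f18, which in the mouse breaks down leukotriene B4, had 25.6 ± 21.3 CPM against 327 ± 65.8 CPM. Nt5e (CD73) makes adenosine outside the cell, and Tpm4 is a tropomyosin of the actin cytoskeleton.

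Among 20 transcription factors, 8 were tested. Cebpe, which drives specific granule genes, was higher, with 1199, 1187 and 1749 CPM in Fcnb+ precursors of Mono+MCTR3 mice 1 to 3 and 1140, 1220 and 1085 CPM in those of Mono mice 1, 3 and 4, against 387 to 576 CPM in Fcnb-low immature neutrophils (log2 fold change 1.20 ± 0.12, adjusted p = 7.2e-08). Xbp1, a factor of secretory cells, was also higher (1.21). Cebpb, Klf2, Klf6, Junb and Fos were lower, Cebpb with 1063 ± 414 CPM against 2655 ± 299 CPM. Spi1 (PU.1) did not pass, at 839 ± 147 CPM and 853 ± 42.4 CPM. With library totals its log2 fold change of -0.22 turned to 0.05, while it passed as lower with all 8 mice (-0.32, adjusted p = 0.032) and with no filter (-0.75, adjusted p = 1.4e-06). With library totals Klf6 no longer passed (-0.37, adjusted p = 0.066). One listed factor, Cebpd, was not analysed here.

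Genes that serve the making of protein came next. Of 16 genes of folding and secretion in the endoplasmic reticulum, 13 were tested and 10 were higher (median 0.82), among them Manf, a protein of the stressed endoplasmic reticulum, at 163 ± 54.7 CPM against 41.4 ± 11.03 CPM, and the disulfide isomerase Pdia3 at 359 ± 122 CPM against 111 ± 10.4 CPM. Of 10 genes of translation and the nucleolus, 8 were tested and 6 were higher, with Npm1 (nucleophosmin) at 184 ± 74.96 CPM against 47.0 ± 13.9 CPM. These counts depended on the setting. Over all genes, 444 of 2316 rose with DESeq2, 390 of 2542 at 3 Fcnb UMIs and 621 of 11454 with no filter. The ER genes that rose numbered 7 of 13 with DESeq2, 6 of 13 at a limit of 3 Fcnb UMIs and 5 of 16 with no filter (1 lower), and the translation genes 5 of 8 at 3 Fcnb UMIs and 5 of 10 with no filter (1 lower). Of the glycolysis genes, 2 were higher (Tpi1 and Pgam1), 1 was lower (Gapdh) and 6 of 9 did not pass, at a median of 0.02. Pgam1 did not pass at 3 Fcnb UMIs (0.49, adjusted p = 0.17) or with no filter (0.06, adjusted p = 0.85). Ncf1, a subunit of the NADPH oxidase, which makes superoxide, was lower (log2 fold change -0.53). With library totals neither Ncf1 (-0.26, adjusted p = 0.097) nor Gapdh (-0.22, adjusted p = 0.058) passed.

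Among response genes, none passed as higher. Of 16 inflammatory genes, 11 were tested and 8 fell, with the cytokine gene Il1b at 156 ± 211 CPM against 842 ± 179 CPM and the decoy receptor Il1r2 at 349 ± 164 CPM against 1324 ± 286 CPM. In 2 single Fcnb+ precursors, 1 each in Mono+MCTR3 mice 2 and 3, there were 28 and 21 of the 72 Il1b UMIs. Of 11 interferon response genes, 4 were tested and 4 fell, Ifitm3 with 1088 ± 265 CPM against 2142 ± 211 CPM. Of 12 immediate early genes, 7 were tested and 6 fell. The seventh, Jun, did not pass at 526 ± 531 CPM against 289 ± 130 CPM and was highest in Mono mouse 3. It passed as higher without Mono+MCTR3 mouse 3 (0.76, adjusted p = 0.0093), with library totals (0.80) and at 3 Fcnb UMIs (0.81). Over all 2316 tested genes, 570 (24.6%) were lower. With no filter, 12 of 16 inflammatory, 6 of 11 interferon response and 9 of 12 immediate early genes were lower and none was higher. Over all 11454 genes of that fit, 621 were higher and 1436 lower.

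The cell cycle was also measured as a single value per mouse, the UMIs of the 62 S, G2 and M phase genes per 100 UMIs outside the 6 selection genes. Fcnb+ precursors had 1.41, 0.715, 1.02 and 0.0723 in Mono+MCTR3 mice 1 to 4 and 0.872, 0.432, 0.808 and 0.658 in Mono mice 1 to 4. Fcnb-low immature neutrophils lay between 0.0549 and 0.0939 in all 8 mice, and granule-low neutrophils between 0.0786 and 0.105. The value of Fcnb+ precursors was above that of Fcnb-low cells in 7 of 8 mice, and the exception was Mono+MCTR3 mouse 4, with a single precursor at 0.0723 against 0.0735. The mean was 0.747 ± 0.395 in Fcnb+ precursors and 0.0776 ± 0.0129 in Fcnb-low immature neutrophils (SD, n = 8; difference 0.67; two-sided exact sign-flip permutation within mice, p = 0.0156, where the smallest possible is 0.00781). After each cell was thinned to 1000 UMIs the difference was 0.56 (exact permutation p = 0.0156).

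**Figure D3:**
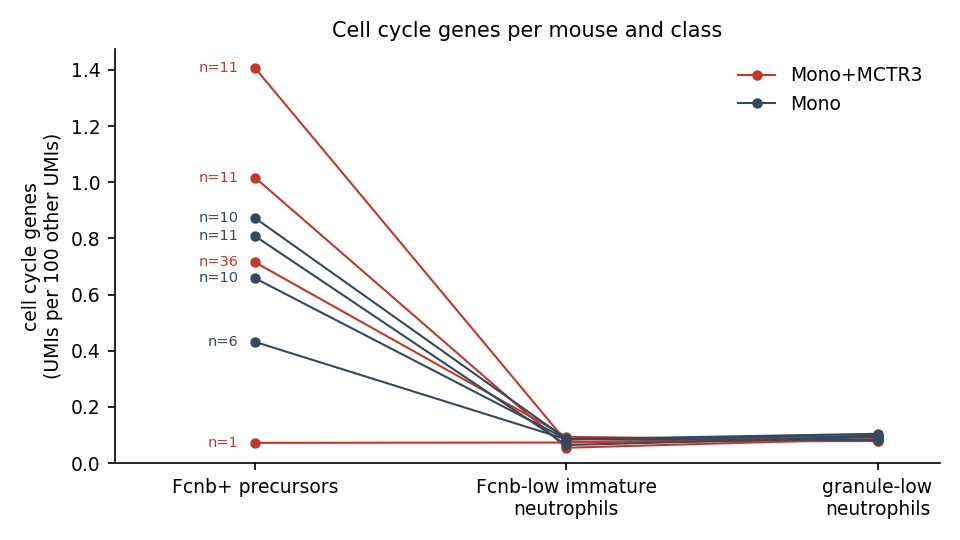
UMIs of 62 cell cycle genes per 100 UMIs outside the selection genes, in Fcnb+ precursors, Fcnb-low immature neutrophils and granule-low neutrophils of each mouse (lines join the classes of 1 mouse, and n is its number of Fcnb+ precursors). In 7 of 8 mice the precursors lie above both other classes, which stay at or under 0.105.

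Between the groups, the cell cycle value of Fcnb+ precursors averaged 0.802 ± 0.563 in Mono+MCTR3 and 0.693 ± 0.196 in Mono (exact permutation p = 0.743, n = 4 each). In the 3 mice a group with at least 10 precursors it was 1.05 ± 0.347 in Mono+MCTR3 and 0.78 ± 0.11 in Mono (exact permutation p = 0.30, smallest possible 0.10).

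Not every Fcnb+ precursor carried cell cycle transcripts. In 37 of 96 (38.5%) they made up at least 0.5 per 100 of the other UMIs, as they did in 6 of 1036 Fcnb-low immature neutrophils (0.579%) and 97 of 5446 granule-low neutrophils (1.78%). Few precursors lay near this limit, 3 between 0.4 and 0.6, and the highest reached 2.74. The 37 cells had a median of 13112 UMIs and 9 Fcnb UMIs, and the other 59 had 7341 UMIs and 4 Fcnb UMIs. Their median Ltf share was 1.02% against 1.44% of UMIs, their median Chil3 share 1.18% against 0.706%, and their Camp share 7.03% against 7.20%. Mki67, the proliferation marker, was seen in 32 precursors, in 2 Fcnb-low immature neutrophils and in 1.55% of cells outside the gate. Thinned to 1000 UMIs, any cell cycle UMI was seen in 62.1% of 95 Fcnb+ precursors, 30.9% of 1035 Fcnb-low cells and 42.2% of 1000 granule-low neutrophils. The share was 61.0% in cells outside the gate, where 1 UMI per cell is common. The 1000 UMIs included the 6 selection genes, so the depth in other genes was unequal. These genes took 48.5%, 46.4%, 24.3% and 0.449% of the UMIs of the classes in this order.

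Ordered by their Fcnb UMIs, the granule-high cells differed, in a graded way for some genes and not for others. Cells with 0, 1, 2, 3 to 4, 5 to 9 and at least 10 Fcnb UMIs numbered 991, 45, 20, 21, 34 and 21. Over these bins cell cycle genes made up 0.0793, 0.102, 0.526, 0.505, 0.986 and 0.996 per 100 other UMIs when the cells of a bin were pooled. The median cell had 0.0541, 0.0827, 0.122, 0.0642, 0.233 and 0.857, which was not graded at 3 to 4 Fcnb UMIs. Retnlg fell along the same order, with 63047, 13384, 6479, 5065, 2856 and 1543 CPM, and Mmp8 did likewise, with 4553, 1905, 1325, 508, 88.0 and 40.8 CPM. Cebpe had 445, 876, 869, 1136, 1308 and 1413 CPM. Lcn2 was not graded, with 21124, 31913, 32511, 30468, 31031 and 23709 CPM. The cells just inside the Fcnb limit, with 2 UMIs, were close to those just outside it, with 1 UMI, in Cebpe and Chil3 (16992 and 13106 CPM). Their pooled cell cycle value rested on 4 of 20 cells at or above 0.5. The median cell had 0.122 inside and 0.0827 outside the limit, and after thinning 42.1% and 37.8% of cells had a cell cycle UMI. With 3 to 4 Fcnb UMIs the thinned share was 28.6%, and with 0 it was 29.4%. Median depth was 4004 UMIs in the bin with 0 Fcnb UMIs and 13272 in that with at least 10, and its part in these values was not tested. Since the bins are made from a gene of the selection, this is a description.

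**Figure D4:**
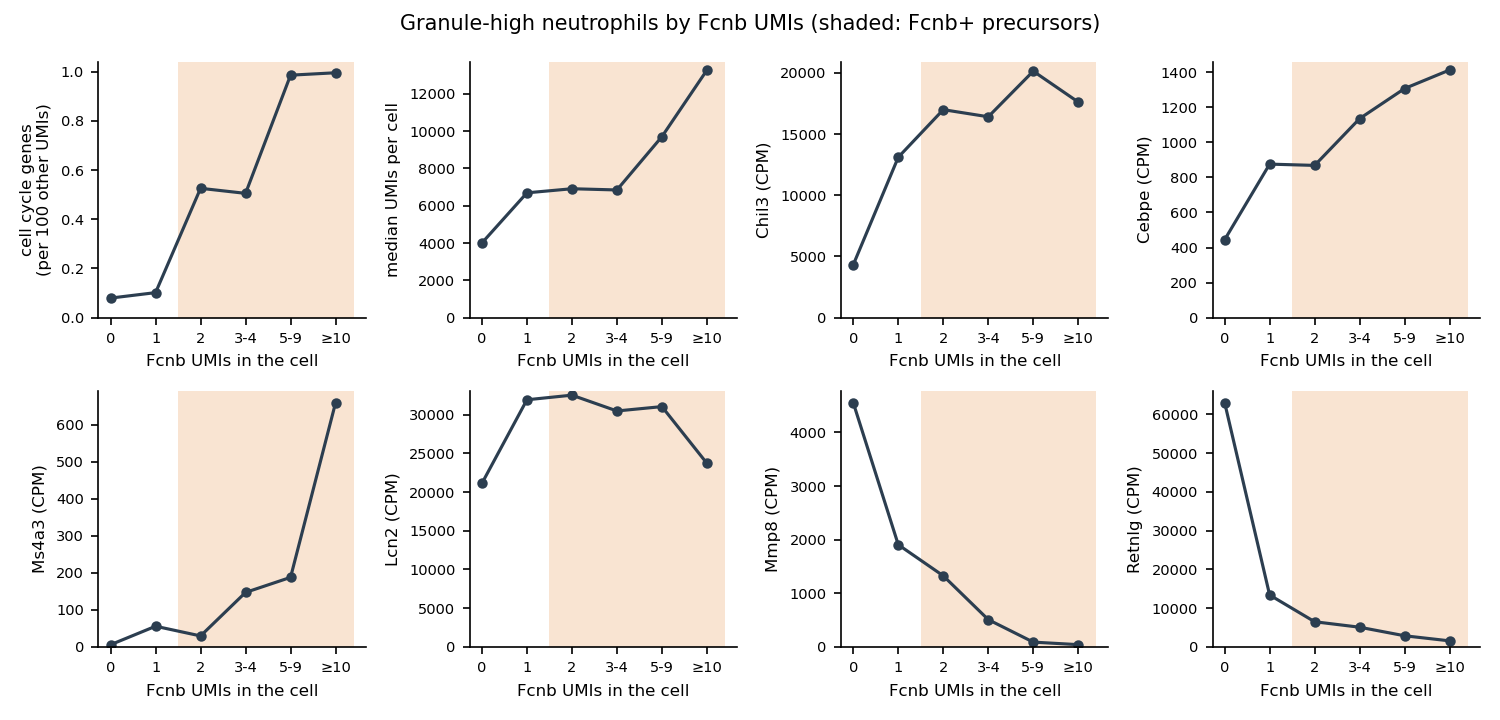
Granule-high neutrophils grouped by Fcnb UMIs per cell (horizontal axis, shaded where the cells count as Fcnb+ precursors). Panels give cell cycle genes per 100 other UMIs, median UMIs per cell and CPM of 6 genes, each axis from 0. Cell cycle genes, Cebpe and Ms4a3 are highest in the bins with most Fcnb, and Mmp8 and Retnlg are highest in the bin with none.

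Among the Fcnb+ precursors, primary granule transcripts marked the far end of this range. Elane (neutrophil elastase), Mpo, Prtn3 (proteinase 3) and Ctsg (cathepsin G) were all at 0 in 78 of the 96 Fcnb+ precursors. Together they gave 1 to 9 UMIs in 12 cells and 10 or more in 6. Elane was seen in 15 cells, and 2 of them held 466 of its 527 UMIs. Mpo was seen in 3 cells. The most UMIs of the 4 genes in 1 precursor were 373. More were held outside the class, 863 by a granule-low neutrophil with 20 Fcnb UMIs. A removed barcode, which was also under the S100 and granule limits, held 1034. The 6 cells came from 4 mice, 3 of them from Mono+MCTR3 and 3 from Mono, and had 16 to 46 Fcnb UMIs and 14101 to 17011 UMIs. Their Ltf share had a median of 0.345% of UMIs, the 12 cells had 0.958% and the 78 cells 1.40%. Camp had medians of 7.08%, 6.85% and 7.35% in the same order, and ran from 3.35% to 9.65% over the 6 cells. Camp and Ltf belong to the selection, so these shares are a description and were not tested. All 6 cells, 10 of the 12 and 21 of the 78 were at or above the cell cycle limit of 0.5. Ms4a3 was more widespread, in 44 Fcnb+ precursors (45.8%) against 15 Fcnb-low immature neutrophils (1.45%) and 0.218% of cells outside the gate. By these genes the label of early precursors held for part of the class, and most of its cells had no primary granule transcript of these 4 genes.

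**Figure D5:**
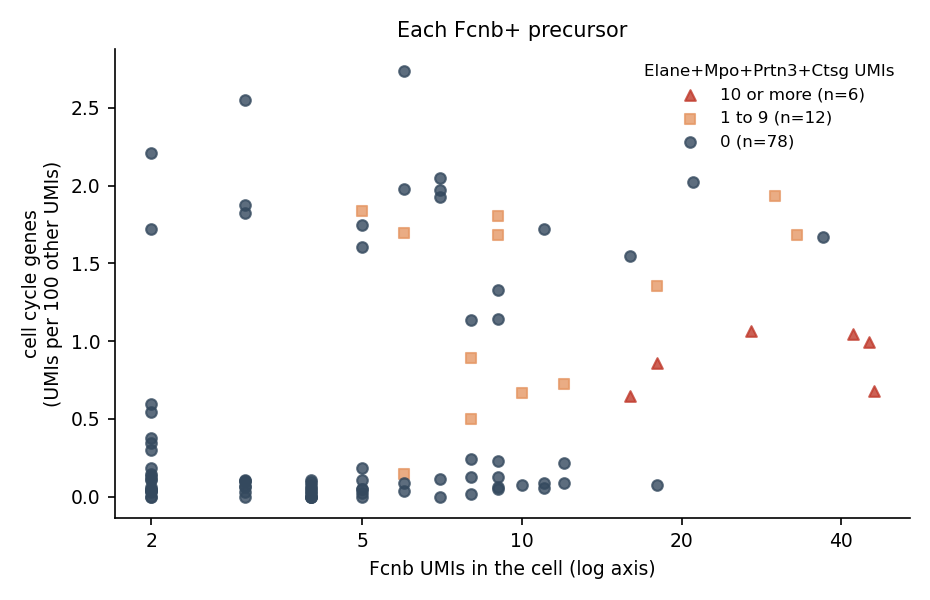
Each of the 96 Fcnb+ precursors by Fcnb UMIs (horizontal log axis) and UMIs of cell cycle genes per 100 other UMIs (vertical axis). Triangles mark the 6 cells with 10 or more UMIs of Elane, Mpo, Prtn3 and Ctsg, squares the 12 with 1 to 9 and circles the 78 with 0. The triangles lie between 0.648 and 1.06, and the circles split into a band near 0 and a scatter up to 2.74.

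The other markers of the label were widely shared by the cells. Chil3 was seen in all 96 Fcnb+ precursors, against 78.3% of Fcnb-low immature neutrophils and 7.29% of cells outside the gate. Cebpe was seen in 88.5% and Orm1 in 86.5%, against 45.5% and 14.8% of Fcnb-low immature neutrophils and 1.06% and 0.109% of cells outside the gate. At an equal depth of 1000 UMIs Orm1 remained in 26.3% of Fcnb+ precursors and 3.86% of Fcnb-low cells.

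Most markers of other cells were scarce. Cd34, a stem cell marker, and Csf1r, the receptor of the monocyte lineage, had no UMI in the 96 cells, which allows up to 3.125% of cells with a UMI and does not limit the share that express them, and Kit, a receptor of stem and mast cells, was seen in 7 cells. Of 8 monocyte markers 5 had a UMI, and 1146 of their 1160 UMIs were of Ly6c2, which immature neutrophils also express (2268 ± 567 CPM against 2438 ± 348 CPM in Fcnb-low cells). The 7 macrophage markers reached at most 46.1 CPM in any mouse, the 7 T-cell markers 47.2, the 5 progenitor markers 37.9 and the 7 eosinophil, basophil and mast cell markers 58.5 CPM. B-cell markers ranged from 0 to 225 CPM in Mono+MCTR3 and 75.7 to 163 CPM in Mono. Erythroid markers ranged from 150 to 309 CPM in Mono+MCTR3 and from 0 to 114 CPM in Mono. The groups did not overlap for erythroid markers, but these values rest on 60 UMIs and were not tested. Among the 805 genes tested between the groups, 3.85% did not overlap with Mono+MCTR3 above and 2.48% with it below. NK markers ranged from 25.7 to 225 CPM in Mono+MCTR3 and from 40.01 to 1719 CPM in Mono. The highest NK value was that of Mono mouse 1. In that mouse 1 cell held 40 of the 51 Gzma UMIs and 16 of the 88 Nkg7 UMIs of all Fcnb+ precursors. Nkg7, an NK marker, was seen in 20.8% of Fcnb+ precursors, 4.92% of Fcnb-low and 2.33% of granule-low neutrophils. Ighm, a B-cell marker, was seen in 32.3%, 18.9% and 21.0% in the same order. Depth was lower in the reference classes. Against granule-low neutrophils Nkg7 passed as higher and Ighm as lower. The most Nkg7 UMIs in 1 precursor, 23 of 88, were in Mono+MCTR3 mouse 2. With no filter 2 of 6 NK markers were higher than in Fcnb-low cells, as were 621 of all 11454 genes. What part cells of other types or their free RNA had in any difference was not tested.

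Against granule-low neutrophils, a class set by the S100 and granule limits alone, the contrast was wider. Csf1r was seen in 6.57% of granule-low neutrophils and in 8.21% of cells outside the gate. What part other cell types had in this contrast was not tested. The test covered 3574 genes, and Fcnb+ precursors had higher levels of 1058 (29.6%) and lower levels of 1153 (32.3%) (edgeR, mouse as a block, 6 mice). With library totals the counts were 1602 and 743, at a median log2 fold change of 0.49 in place of -0.08. The largest rises again held cell cycle genes (Cdc20, Cdca8, Asf1b, Cdk1, Spc25, Ube2c and Ccnb1), joined by Orm1, Chil3 and Mogat2, an enzyme of triglyceride synthesis. Cdc20, an activator of the anaphase-promoting complex, gave 99 UMIs in Fcnb+ precursors and 0 in granule-low neutrophils, which puts it at least 412-fold higher (against 3 UMIs over the class). Orm1 averaged 645 ± 182 CPM against 1.30 ± 0.75 CPM and Chil3 18297 ± 2257 CPM against 72.8 ± 53.2 CPM.

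The largest falls were Gm5150, Emilin2, Jaml, Sirpb1b, Cd300ld, Nlrp3, Cyp4f18, Klra2, Ccl6 and Pla2g7. Gm5150, Sirpb1b and Klra2 belong to families of near-identical genes, and their counts are uncertain. Emilin2, an extracellular matrix glycoprotein, had 0 UMIs in Fcnb+ precursors and 1073 in granule-low neutrophils, which puts it at least 28.7-fold lower. Nlrp3, the inflammasome sensor, had 2 UMIs against 1471, and the chemokine Ccl6 362 ± 607 CPM against 10068 ± 389 CPM, where 1 precursor of Mono+MCTR3 mouse 3 held 58 of the 115 Ccl6 UMIs. All 18 mature neutrophil genes were lower (median -3.77), as were 13 of 14 tested inflammatory genes, 7 of 7 interferon response genes and 9 of 10 immediate early genes. Over all 3574 tested genes, 32.3% were lower and 29.6% higher. Of 13 tested specific granule genes, 8 were higher, 2 were lower (Mmp8 and Ceacam10) and 3 did not pass (Pglyrp1, Hp and Cyba). Cybb, the catalytic subunit of the NADPH oxidase, averaged 1532 ± 269 CPM against 148 ± 24.1 CPM in granule-low neutrophils (log2 fold change 2.86), while it did not pass against Fcnb-low cells (-0.04, adjusted p = 0.82), with 0.23 for library totals and a passing -0.56 with no filter (adjusted p = 5.4e-05).

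Finally, Mono+MCTR3 was set against Mono within the Fcnb+ precursors, in the same 6 mice (3 a group). Of 805 genes tested, 0 (0%) passed in either direction with the quasi-likelihood test of edgeR, and 24 had an unadjusted p under 0.05. DESeq2 also gave 0, with 13 unadjusted, and the likelihood ratio test of edgeR 0, with 28. In 31 genes (3.85%) all 3 Mono+MCTR3 mice were above all 3 Mono mice, and in 20 (2.48%) all were below. The median log2 fold change over the genes tested was -0.03. The median size of a change, whatever its sign, was 0.17. List medians were 0.37 for G2 and M phase (11 tested), 0.02 for S phase (4), -0.05 for specific granules (12) and -0.24 for primary granules (4). They were 0.07 for mature neutrophil genes (7), -0.38 for immediate early genes (5), -0.39 for gelatinase granules (2) and -0.23 for folding and secretion in the endoplasmic reticulum (6). None of the genes on these lists passed.

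The genes with the smallest p-values are given as values, since none passed. Iqgap1, a scaffold of the cytoskeleton, had 161, 115 and 154 CPM in Mono+MCTR3 mice 1 to 3, against 326, 280 and 401 CPM in Mono mice 1, 3 and 4 (log2 fold change -1.33 ± 0.33, edgeR adjusted p = 0.999, as for all genes of this paragraph). S100a6, a calcium-binding protein, had 1666, 1458 and 772 CPM in Mono+MCTR3, against 2570, 2320.5 and 2406 CPM in Mono (-0.92 ± 0.26). The groups did not overlap for either gene. The next on this side were Dnaja1 (a chaperone, -1.05), Ifi27 (an interferon-induced gene, -1.22) and Tmsb10 (an actin-binding thymosin, -0.80). On the other side Tuba1b (a tubulin) had 1096, 657 and 823 CPM in Mono+MCTR3, against 489, 380 and 448 CPM in Mono (0.90 ± 0.27), and Cdk1 had 380.0, 230 and 463 CPM in Mono+MCTR3, against 54.3, 160.0 and 165 CPM in Mono (1.36 ± 0.45). They were followed by Cdkn2d (an inhibitor of cyclin D kinases, 0.93), Sp140 (a chromatin reader, 1.00) and F630028O10Rik, an RNA gene whose role is not given here (0.63). Chil3, with 19828 ± 2249 CPM in Mono+MCTR3 and 16767 ± 805 CPM in Mono, did not overlap either (0.19, unadjusted p = 0.21 with edgeR).

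The difference of the group effect between Fcnb+ precursors and Fcnb-low immature neutrophils was tested as an interaction over 3203 genes. None (0%) was higher and 1 (0.0312%) was lower, with 116 at an unadjusted p under 0.05 (edgeR). The gene was Ccl4, a chemokine, at an interaction of -5.24 ± 0.70 on the log2 scale (adjusted p = 6.0e-05). In Fcnb+ precursors it had 14.6, 34.6 and 25.7 CPM in Mono+MCTR3 mice 1 to 3 and 760.1, 20.004 and 94.4 CPM in Mono mice 1, 3 and 4. In Fcnb-low immature neutrophils it had 67.4, 274 and 722 CPM in these Mono+MCTR3 mice and 79.0, 66.0 and 51.5 CPM in these Mono mice. The value of Mono mouse 1 rested on 1 cell, which held 41 of the 56 Ccl4 UMIs of all Fcnb+ precursors, 118 of the 145 of Ccl5 and 40 of the 51 of Gzma, a protease of NK and T cells. The other 9 precursors of that mouse held 1 Ccl4 UMI (20.4 CPM). Without Mono mouse 1 the interaction of Ccl4 was -3.15 (adjusted p = 0.617) and did not pass.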

How the data were processed

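Single cell RNA was measured in CD45+ cells sorted from the paws of 8 mice with the 10x 3′ method. The deposited tables, 1 per group, hold UMI counts per gene and barcode, which the authors made with Cell Ranger (STAR, GRCm38) and joined with its aggregation step. The submitters' processing notes list Cell Ranger and edgeR with the build GRCm38. Versions were not given in the sources used here. Dead cells were removed before loading.

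Mice were told apart by the barcode suffix (4 per group), which is not matched to the titled samples. The members and the 24 gene lists were chosen with earlier results of these data known. UMIs were summed per mouse and class, the 6 genes of the selection were left out of tests and library sizes, and sums of the mice with at least 10 Fcnb+ precursors were compared in edgeR 4.0.16 (R 4.3.3, TMM, filterByExpr, glmQLFit, Benjamini-Hochberg adjusted p under 0.05), with the mouse as a block between classes. Fcnb+ precursors and Fcnb-low cells of a mouse are paired because they come from the same animal. A standard error is the size of a log2 fold change over the root of its F statistic. Shares and cell cycle values were compared with exact permutation tests, two-sided. Intervals and limits from counts cover counting error only. The fits were tested on simulated data. Named genes are those of the lists and, per class comparison, the 10 largest changes in each direction with at least 100 CPM in the higher class. For the groups they are the 5 smallest p-values in each direction with at least 100 CPM in either group, and others named were chosen after their values were seen. Alternatives were DESeq2 1.42.0, the likelihood ratio test, library totals, no filter, each mouse left out, other limits on cells and on the selection, doublets (Scrublet in scanpy 1.11.5, 0.8% expected per 1000 cells, 0.544% called) removed, no mouse block, and thinning. Python 3.11.15, numpy 2.4.6, pandas 2.3.3, scipy 1.17.1 and matplotlib 3.10.9 served for the rest. One listed gene is not reported here.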

Additional observations from a re-analysis of the deposited data

Results flagged for a closer look

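The share of Fcnb+ precursors among neutrophils was 0.573% in Mono mouse 2, while the other 3 Mono mice had 1.34% to 1.39%, a gap that took up most of the range of the group. This was 1 of 10 sets of 4 mice checked, and chance sets apart about 1 set in 20. That mouse had 6 Fcnb+ precursors, and its Fcnb+ precursor share of granule-high cells, 7.23%, was within the range of the other Mono mice.

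Ccl4 differed between classes in its Mono+MCTR3 effect, with an interaction of -5.24 on the log2 scale (edgeR adjusted p = 6.0e-05). In Mono mouse 1 the Fcnb+ precursor value came mostly from 1 cell, with 41 Ccl4 UMIs, 11356 UMIs and 2087 genes, which was not called a doublet. A fit without this cell alone was not run. Without Mono mouse 1 it did not pass (-3.15, adjusted p = 0.617), and without Mono+MCTR3 mouse 3, whose Fcnb-low cells had 722 CPM, it did (-4.69, adjusted p = 0.0033).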

How the results depend on the processing

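The difference in the share of Fcnb+ precursors between Mono+MCTR3 and Mono changed sign with single mice. Leaving out each mouse gave -0.0507 to 0.533 percentage points of kept cells and -0.213 to 0.834 of neutrophils, both lowest without Mono+MCTR3 mouse 2, and -1.20 to 2.01 of granule-high cells, which was also below 0 without Mono+MCTR3 mouse 3 (-0.219) and Mono mouse 4 (-0.285). None passed.

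Against Fcnb-low immature neutrophils, 848 genes were higher and 374 lower with library totals, a shift of the median from 0.01 to 0.27. With no filter 1436 were lower, at a median of -0.35. A limit of 3 Fcnb UMIs left 2 mice and gave 390 higher, and all 8 mice, an alternative chosen after seeing the data, gave 329 higher. Against granule-low neutrophils the counts were 1602 higher and 743 lower with library totals, 2189 lower with no filter and 610 higher with all 8 mice. Leaving out each mouse gave 407 to 587 higher and 430 to 566 lower in the first comparison, and 812 to 1078 higher and 1087 to 1163 lower in the second. Beyond the scaling and the filter, the cause of these moves was not tested. Calls shared with the main counts had the same sign in every setting.

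With no filter, Mono+MCTR3 against Mono gave 3 genes higher and 8 lower of 9491, among them Ccl4, Ccl5 and Gzma, whose UMIs came mostly from 1 cell. Genes called in the interaction numbered 0 to 4 higher and 1 to 4 lower without single mice.

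Without the mouse as a replicate block, 606 genes were higher and 571 lower against Fcnb-low cells, and 1094 and 1176 against granule-low neutrophils. The cell cycle difference then had an exact permutation p of 0.00109. Its alternatives ranged from 0.56 to 0.836, with exact p from 0.00109 to 0.0313. Of 38 list genes named against Fcnb-low cells, 29 kept direction and side of the threshold in all alternatives that tested them. Direction turned for Lcn2 (-0.37 with no filter), and for Cybb (0.23) and Spi1 (0.0488) with library totals. The 20 genes of largest change in each class comparison kept both wherever they were tested, which was not in every alternative.

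Comparisons of the groups with a limit of 3 Fcnb UMIs, all fits with a limit of 0.1% of UMIs (28 cells) and fits of mice with at least 20 Fcnb+ precursors (1 mouse) could not be fitted. Also chosen after seeing the data were a limit of 0.03% of UMIs and the mouse with 36 Fcnb+ precursors drawn down to 11. Neither moved a total count of genes by over 1.5 times in the comparisons run. The drawn-down mouse was not run against granule-low neutrophils, and with it 3 S phase genes were tested and higher in place of 7. In the group comparison 805 genes had enough UMIs to be tested, in 3 against 3 mice.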
